A study of Homo sapiens with 24 samples.

Results

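The ZNF genes are human genes whose products carry, or are named for, zinc fingers. They were taken by symbol, ZNF followed by a number and at most 1 letter, and by level, a mean of at least 1 FPKM (fragments scaled to transcript length and to library) over all 24 libraries. Of 528 ZNF symbols among the 22925 symbols of the table, 165 met that level, and they held 300 of the 859 ZNF transcripts. The members were thus chosen by their mean FPKM over the 24 libraries, so their levels are given as a description. The 3 members nearest the threshold were ZNF800 at 1.01, ZNF468 at 1.05 and ZNF691 at 1.06 FPKM, and the nearest genes under it were ZNF101 at 0.993, ZNF343 at 0.992 and ZNF319 at 0.972 FPKM.

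The study followed mRNA decay in U2OS, an established human osteosarcoma cell line, after isoform-specific depletion of PAN3, a subunit of the PAN2-PAN3 deadenylase that shortens poly(A) tails. Cells received siRNA against the long PAN3 isoform, the short isoform or both, or a control siRNA, and actinomycin D then stopped transcription for 0, 0.5, 1, 2, 4 or 6 h. All cells, controls included, were siRNA-transfected and given the drug, with 0 h as the start of each course. Cytoplasmic RNA was sequenced as 1 library for each of the 4 series and 6 times, so the spread between libraries is the scatter of the times about a course and no time point was repeated.

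The FPKM of all genes summed to between 324072.2 and 384287.0 in the 24 libraries, and between 8996 and 9720 genes reached 1 FPKM. The depth in reads is unknown. PAN3 itself had 0.376 to 1.698 FPKM in the libraries labelled for the long isoform (mean 0.898), 1.76 to 4.01 in those labelled for the short isoform (mean 2.51), 0.411 to 2.49 in those labelled for both (mean 1.45) and 0 to 2.40 in control libraries (mean 0.988). PAN3 was thus not lower in the short-labelled and both-labelled series by its mean, the isoforms could not be separated here, and every direction below rests on the labels. PAN3 was not tested, since it was listed at 0 in control cells at 6 h after 2.40 FPKM at 4 h. The series are called long-labelled, short-labelled and both-labelled for that reason. PAN2, its partner subunit, was listed at 0 in 1 of the 6 long-labelled, 5 of the 6 short-labelled and 5 of the 6 both-labelled libraries (means 6.74, 1.02 and 0.972 FPKM), and had 8.50 to 11.9 FPKM in control libraries. Of 10 markers of osteosarcoma and mesenchymal cells, VIM (mean 636.5 FPKM), COL5A1 (63.7) and COL1A1 (46.7) had means well above 1 FPKM, although COL1A1 was listed at 0 in 7 libraries and VIM in 1, while RUNX2 (0.514), SPARC (0.433) and FN1 (0.387) were not and COL1A2, ALPL, THY1 and CDH2 were at or near 0. All 12 markers of other cell types had means of 0.158 FPKM or less.

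Zinc-finger proteins of the C2H2 class hold each zinc ion between a pair of cysteines and a pair of histidines, and arrays of such fingers read DNA sequence base by base. Many members also carry a KRAB domain, which recruits the corepressor TRIM28 and silences transcription, and the KRAB genes lie in large clusters, most of them on chromosome 19. Their mRNAs are known in many cell lines as short-lived, and a minority of ZNF proteins have other work, such as ribosome assembly (ZNF622, ZNF593), RNA splicing (ZNF326) or chromosome segregation (ZNF207, ZNF828).

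The fingers of 5 members that recur in the results are given here, as 1 finger of each coding sequence on GRCh38, from GENCODE 29, with the codons of the zinc-binding cysteines and histidines in capitals. ZNF622, at chr5:16465582-16465650 on the minus strand, has 3 fingers by this pattern and a longer spacing before its last histidine than the others. ZNF317 lies at chr19:9160315-9160377 on the plus strand and has 13. ZNF398 and ZNF282 lie on chromosome 7, at chr7:149179070-149179132 and chr7:149224189-149224251 on the plus strand, with 7 and 5. ZNF322 lies at chr6:26638107-26638169 on the minus strand and has 8.
ZNF622: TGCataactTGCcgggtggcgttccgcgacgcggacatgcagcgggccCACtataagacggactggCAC
ZNF317: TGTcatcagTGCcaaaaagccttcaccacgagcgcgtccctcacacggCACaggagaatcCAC
ZNF398: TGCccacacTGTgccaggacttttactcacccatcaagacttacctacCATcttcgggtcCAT
ZNF282: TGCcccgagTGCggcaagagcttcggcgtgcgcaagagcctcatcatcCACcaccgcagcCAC
ZNF322: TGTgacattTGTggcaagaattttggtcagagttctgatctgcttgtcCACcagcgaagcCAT

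Most members were scarce mRNAs. The mean lay between 1 and 2 FPKM in 73 members, between 2 and 5 in 49, between 5 and 10 in 29 and at 10 or more in 14, with a median of 2.36 FPKM. The 5 highest were ZNF207 (mean 54.7 FPKM), a spindle and kinetochore protein that binds BUB3, ZNF622 (32.3) and ZNF593 (31.9), whose yeast relatives Rei1 and Bud20 act in maturation of the large ribosomal subunit, ZNF664 (17.9), and ZNF326 (17.4), a splicing factor that travels with RNA polymerase II. ZNF207 spanned 49.4 to 68.1 FPKM in long-labelled, 39.8 to 52.0 in short-labelled, 32.7 to 55.8 in both-labelled and 38.1 to 77.2 FPKM in control cells, so all 4 series overlapped. In bulk RNA, fewer cells with an mRNA and less of it per cell cannot be told apart. In each series the members' share of all FPKM was lower at 6 h than at 0 h. It was 0.276% at 0 h and 0.172% at 6 h in the long-labelled series, 0.264% and 0.153% in the short-labelled, 0.279% and 0.154% in the both-labelled, and 0.313% and 0.141% in the control series.

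Of the 165 members, 107 could be tested. A dash stood for a missing value in 13 others (means of 1.14 to 5.17 FPKM), and 45 were listed at 0 in a library beside, in the same course, a neighbouring time at 1 FPKM or more (means of 1.01 to 9.29 FPKM, 1 to 15 libraries at 0). ZNF131, for example, was listed at 0 in control cells at 0, 1, 2 and 4 h and at 14.8 FPKM in control cells at 0.5 h. Values for such members are not compared. The tested members had a median mean level of 2.61 FPKM, against 11.9 FPKM for all 7860 genes tested.

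The median member fell further in FPKM than the median gene in every series. FPKM is scaled to each library, so these percentages are relative and the absolute loss of RNA cannot be read from them. The summed FPKM of control cells was 335935.9 at 0 h and 384287.0 at 6 h. In the median tested member, FPKM at 0.5, 1, 2, 4 and 6 h were 87.8%, 74.3%, 67.0%, 56.0% and 56.2% of the 0 h value in the long-labelled series. They were 91.9%, 81.96%, 62.6%, 68.4% and 53.7% in the short-labelled series, and 91.0%, 78.2%, 62.6%, 65.6% and 58.5% in the both-labelled series. In control cells they were 87.9%, 67.3%, 54.4%, 45.5% and 43.7%. Over all genes tested, the median at 6 h was 96.7% in the long-labelled, 96.2% in the short-labelled, 97.7% in the both-labelled and 94.9% in the control series. The members below their own 0 h value at 6 h, after centring each library on its median, numbered 72, 68, 66 and 83 of 107 in the long-labelled, short-labelled, both-labelled and control series.

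**Figure D1:**
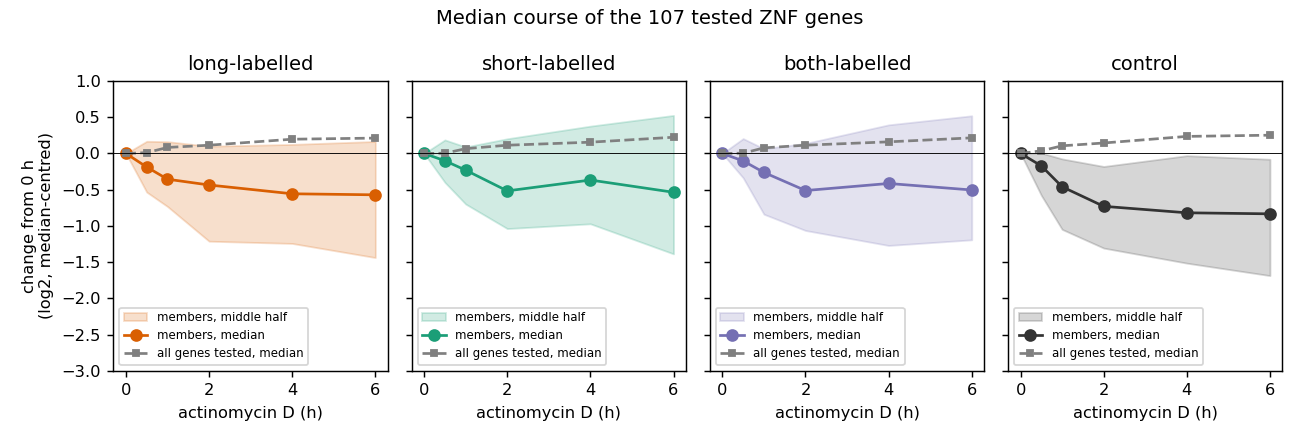
Change from 0 h in hours of actinomycin D, on the log2(FPKM + 0.1) scale after centring each library on the median of all genes tested, for the 107 tested ZNF genes (circles, median; band, interquartile range) and for all 7860 genes tested (squares, median). At 6 h the members' median stood at -0.57 in the long-labelled, -0.54 in the short-labelled, -0.50 in the both-labelled and -0.83 in the control series, while the median of all genes was between 0.21 and 0.25.

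In control cells 36 of 107 members had a slope below 0 relative to the library median and 3 above 0, in limma with a Benjamini-Hochberg adjusted p under 0.05 over 7860 genes. These were 33.6% and 2.8% of the members, while over all genes tested 16.7% were called below 0 and 30.1% above 0. The median slope was -0.11 log2 units per h in the members and 0.04 in all genes. A slope here is the change of log2(FPKM + 0.1) per hour relative to the median gene of each library.

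The steepest was ZNF828, now named CHAMP1, a protein of the spindle and kinetochore, on chromosome 13. It had 16.4, 8.88, 5.50, 1.75 and 0.976 FPKM in control cells at 0, 0.5, 1, 2 and 4 h and was listed at 0 at 6 h. Its slope was -1.07 ± 0.10 per h (SE, adjusted p = 3.0e-07), and it depended on the value added before the logarithm, with -0.58 after adding 1 FPKM and -1.54 after adding 0.01. ZNF322 had 3.17, 2.13, 1.74, 0.291 and 0.356 FPKM at 0 to 4 h and was listed at 0 at 6 h (slope -0.73 ± 0.12, adjusted p = 6.6e-05). ZNF574 had 7.11 FPKM at 0 h, 0.459 at 2 h and 0.373 at 6 h, with a slope of -0.62 ± 0.18 (adjusted p = 0.0093). All 3 were at a small part of their first value by 2 h.

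ZNF503 and ZNF703 form a small family of transcriptional repressors with an atypical finger, and both were among the 10 steepest. In control cells ZNF503 had 5.11, 3.09, 1.85, 1.10, 0.290 and 0.447 FPKM at 0 to 6 h (slope -0.51 ± 0.11, adjusted p = 0.0010). ZNF703 had 5.18, 2.62, 1.58, 0.691, 0.573 and 0.401 FPKM (-0.45 ± 0.12, adjusted p = 0.0047). The others were ZNF408 (-0.47 ± 0.14), ZNF330 (-0.45 ± 0.03), a nucleolar antigen, ZNF766 (-0.44 ± 0.13), ZNF622 (-0.43 ± 0.03) and ZNF398 (-0.42 ± 0.09), with adjusted p between 1.3e-09 and 0.011. Of these, the calls of ZNF574, ZNF408 and ZNF766 ended without the control library at 0 h, that of ZNF408 also without the control library at 6 h, that of ZNF574 without the 4 h libraries of all series and that of ZNF766 without the 0 h or 0.5 h libraries of all series.

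The 3 members with a slope above 0 in control cells were ZNF33A, ZNF271 and ZNF226. ZNF271, which RefSeq lists as a transcribed pseudogene, had 3.64, 3.88, 3.66, 4.19, 4.55 and 5.08 FPKM at 0 to 6 h, a slope of 0.13 ± 0.02 (adjusted p = 4.3e-05). ZNF226 had 3.34, 3.47, 4.68, 3.52, 4.28 and 4.82 FPKM (0.12 ± 0.03, adjusted p = 0.0011). ZNF33A (0.17 ± 0.07, adjusted p = 0.037) lost its call without the control library at 0, 1, 4 or 6 h, and it has a close copy, ZNF33B, with which it may share reads.

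The members' median slope was below 0 in the siRNA series too, but in short-labelled and both-labelled cells the share called below 0 was nearer that of all genes. In the long-labelled series 29 members were called below 0 and 5 above 0 (27.1% and 4.67%, against 13.4% and 26.1% of all genes). In the short-labelled series these numbers were 22 and 5 (20.6% and 4.67%, against 16.3% and 28% of all genes). In the both-labelled series they were 23 and 8 (21.5% and 7.48%, against 14.6% and 26.3%). The members' median slopes were -0.11, -0.06 and -0.08 per h in long-labelled, short-labelled and both-labelled cells, against 0.04 for all genes in each.

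Of the 107 members, 13 (12.1%) were called below 0 in all 4 series, against 6.83% of all genes tested. These were ZNF200, ZNF274, ZNF322, ZNF330, ZNF367, ZNF410, ZNF503, ZNF593, ZNF622, ZNF672, ZNF687, ZNF703 and ZNF828. ZNF274, a KRAB protein that brings a histone methyltransferase to the ends of other ZNF genes, had slopes of -0.41, -0.31 and -0.32 per h in long-labelled, short-labelled and both-labelled cells and -0.30 in control cells. ZNF593 fell slowly but evenly relative to the library median, with slopes of -0.12, -0.14 and -0.12 per h in those 3 series and -0.11 in control cells. ZNF271 was the single member called above 0 in all 4 series (0.935% of members, 16% of all genes), at 0.13, 0.12 and 0.11 per h in the siRNA series and 0.13 in control cells. No call in any series was made for 47 members (43.9%, against 33.1% of all genes).

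The control slope was the lowest of the 4 in 42 of 107 members (39.3%, against 26.6% of all genes) and the highest in 21 (19.6%, against 30.2%). The 3 differences from control share the 6 control libraries, so a control value that is off moves all 3 together. Each difference is therefore given with its own values.

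Slopes were higher in short-labelled than in control cells for 12 members and lower for none, where 4.21% and 4.64% of all genes were called higher and lower. In most of the 12 this was a less steep loss, but ZNF337, ZNF692 and ZNF12 had slopes of 0.21, 0.19 and 0.03 in short-labelled cells, and so no loss relative to the median. At an unadjusted p under 0.05 in limma, 20 higher and 4 lower members were found. The share of all genes at that unadjusted threshold was not taken, so these 2 counts have no baseline here. The median difference of slopes was 0.03 per h in the members and 0.00 in all genes. Leaving out 1 library moved the number called to between 4 (without the short-labelled library at 6 h) and 12, with 7 without the control library at 6 h. With time left out as a factor 5 were called, and with only these 2 series in the fit 0 were, while 12 were called over all 24 libraries. In the fit over all series, the calls of ZNF622, ZNF330 and ZNF317 held without any 1 of the 6 times.

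ZNF622, a cytoplasmic factor of ribosome maturation, had 50.1, 43.5, 40.1, 32.9, 23.3 and 14.8 FPKM at 0 to 6 h in short-labelled cells. It had 50.8, 43.6, 40.6, 21.5, 11.0 and 7.61 FPKM in control cells. The courses lay together up to 1 h and apart from 2 h on. The slope was -0.24 per h in short-labelled cells and -0.43 in control cells, a difference of 0.19 ± 0.03 (adjusted p = 7.8e-04).

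ZNF330 had 23.5, 18.0, 19.2, 16.96, 10.2 and 7.78 FPKM in short-labelled cells. In control cells it had 25.7, 24.7, 20.2, 14.0, 5.40 and 3.71 FPKM. It was lower in short-labelled cells up to 1 h and higher there from 2 h on, with a difference in slope of 0.24 ± 0.03 (adjusted p = 2.4e-04). ZNF317, a multi-finger gene of chromosome 19, had 14.1, 12.8, 10.2, 8.51, 7.04 and 7.20 FPKM in short-labelled cells. In control cells it had 13.5, 11.0, 7.17, 4.45, 2.51 and 2.35 FPKM, lower at each time, and the slopes differed by 0.25 ± 0.04 (adjusted p = 0.0015).

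The other 9 members with a higher slope in short-labelled cells were ZNF828 (0.69 ± 0.14), ZNF337 (0.41 ± 0.12), ZNF12 (0.37 ± 0.10), ZNF692 (0.36 ± 0.10), ZNF398 (0.35 ± 0.08), ZNF282 (0.25 ± 0.05), ZNF7 (0.24 ± 0.06), ZNF770 (0.24 ± 0.05) and ZNF394 (0.16 ± 0.04), with limma adjusted p between 0.0058 and 0.045. The calls of ZNF828, ZNF282 and ZNF770 ended without either library at 6 h, that of ZNF7 without the short-labelled library at 6 h or the 0, 0.5, 4 or 6 h libraries of all series, and that of ZNF398 without the 0.5 h or the 6 h libraries of all series. Those of ZNF337, ZNF12, ZNF692 and ZNF394 ended without any of several libraries, among them both at 0 h. ZNF692 had 6.49, 10.9, 8.23, 9.28, 8.81 and 16.2 FPKM in short-labelled cells and 8.79, 8.43, 9.39, 4.03, 3.90 and 3.93 FPKM in control cells. ZNF337 had 2.89, 1.05, 1.68, 1.70, 3.78 and 3.04 FPKM in short-labelled cells and 3.04, 1.46, 0.850, 0.953, 0.407 and 0.853 FPKM in control cells. Both ended above their first value in short-labelled cells and below it in control cells. ZNF282, known as a protein that binds the long terminal repeat of a human retrovirus, had 8.11, 5.34, 7.84, 5.51, 5.54 and 4.83 FPKM in short-labelled cells and 13.6, 12.01, 10.8, 8.02, 4.65 and 3.28 FPKM in control cells. It thus began lower and ended higher. For ZNF828 the difference was 0.28 without the control library at 6 h, where the gene is listed at 0, and it was then not called.

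**Figure D2:**
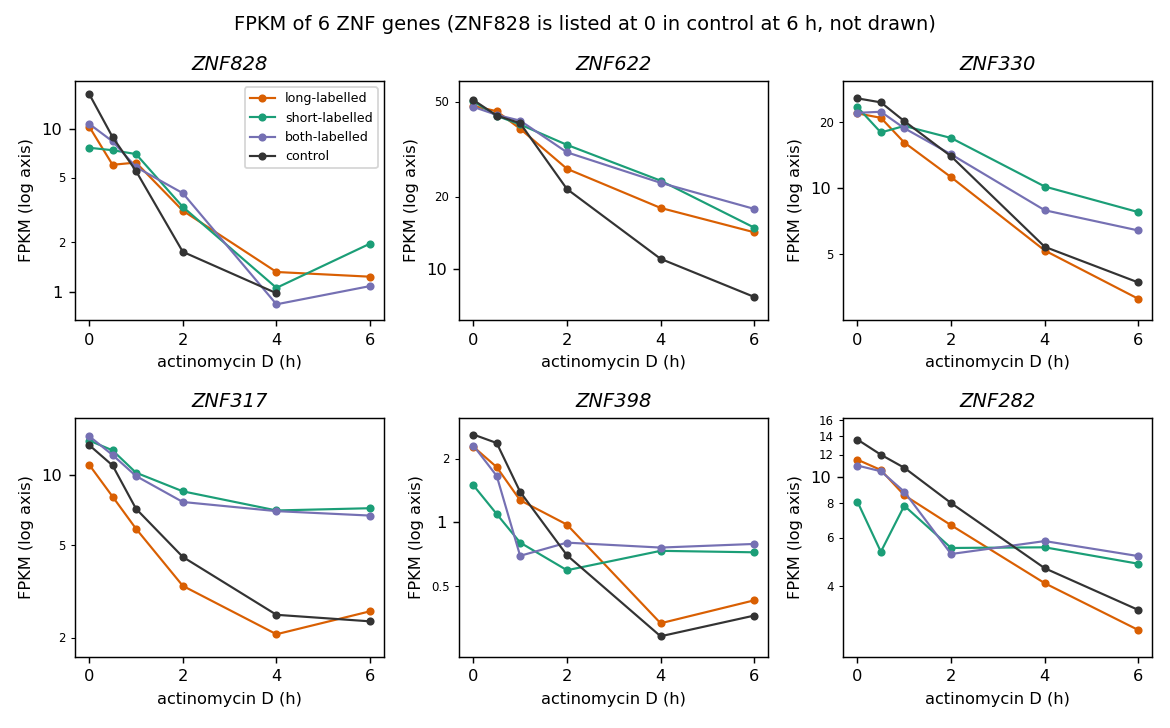
FPKM (log axis) against hours of actinomycin D for 6 ZNF genes, with 1 point for each library of the long-labelled, short-labelled, both-labelled and control series. ZNF622, ZNF330 and ZNF317 end at 14.8, 7.78 and 7.20 FPKM in short-labelled cells and at 7.61, 3.71 and 2.35 FPKM in control cells, and the long-labelled course of ZNF330 runs close to the control.

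In both-labelled cells 8 members had a higher slope than in control cells and 1 a lower slope, where 3.83% and 3.22% of all genes were called. The median difference was 0.04 per h in the members and 0.00 in all genes. The 9 calls became 2 without time as a factor and 1 with only these 2 series in the fit. The 8 with a higher slope were ZNF828 (0.51 ± 0.14), ZNF337 (0.46 ± 0.12), ZNF398 (0.28 ± 0.08), ZNF263 (0.26 ± 0.07), ZNF7 (0.24 ± 0.06), ZNF317 (0.24 ± 0.04), ZNF622 (0.22 ± 0.03) and ZNF330 (0.16 ± 0.03), with limma adjusted p between 3.9e-04 and 0.044. The calls of ZNF622 and ZNF317 held without any 1 time, and that of ZNF330 ended without the both-labelled library at 6 h. Those of the other 5 ended without the control library at 0 h, among others. ZNF622 had 47.5, 44.0, 41.6, 30.6, 22.8 and 17.8 FPKM and ZNF317 had 14.7, 12.2, 9.91, 7.66, 6.997 and 6.70 FPKM in both-labelled cells.

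ZNF337 had a slope called above 0 in both-labelled cells (0.27 per h), with 1.45 FPKM at 0 h and 2.94 FPKM at 6 h, and the other 7 had slopes below 0 there. ZNF703 was the 1 member with a lower slope in both-labelled cells. It had 9.39, 5.81, 2.78, 1.83 and 0.879 FPKM at 0 to 4 h and was listed at 0 at 6 h, against 5.18, 2.62, 1.58, 0.691, 0.573 and 0.401 FPKM in control cells. The difference of -0.50 ± 0.12 per h (adjusted p = 0.023) rested on the last time, being -0.17 without the both-labelled library at 6 h and -0.29 without the control library at 6 h, with no call in either case, and the call was also lost without the control library at 0.5 h. The number called fell to 3 without the both-labelled library at 6 h, to 4 without the control library at 0 or 0.5 h, and to 5 without the both-labelled library at 0.5 h.

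In long-labelled cells 2 members had a higher slope than in control cells and none a lower one, where 1.25% and 0.585% of all genes were called. At an unadjusted p under 0.05 in limma, 10 higher and 4 lower members were found, again without a share of all genes to read them against. ZNF622 had 47.9, 45.5, 38.4, 26.1, 17.9 and 14.2 FPKM in long-labelled cells, and its slope differed from control by 0.17 ± 0.03 per h (adjusted p = 0.013). The call ended without the long-labelled library at 6 h, where the difference was 0.14. ZNF828 had 10.3, 6.00, 6.19, 3.14, 1.32 and 1.23 FPKM in long-labelled cells, a difference of 0.62 ± 0.14 (adjusted p = 0.037) that was 0.20 without the control library at 6 h. Neither call held when each time was left out in turn or with only these 2 series in the fit. The number called was 4 without the control library at 2 h, 0 without the long-labelled library at 6 h, and 1 without the control library at 0.5 or 1 h or any other long-labelled library. The median difference over the members was 0.02 per h, against 0.00 in all genes.

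**Figure D3:**
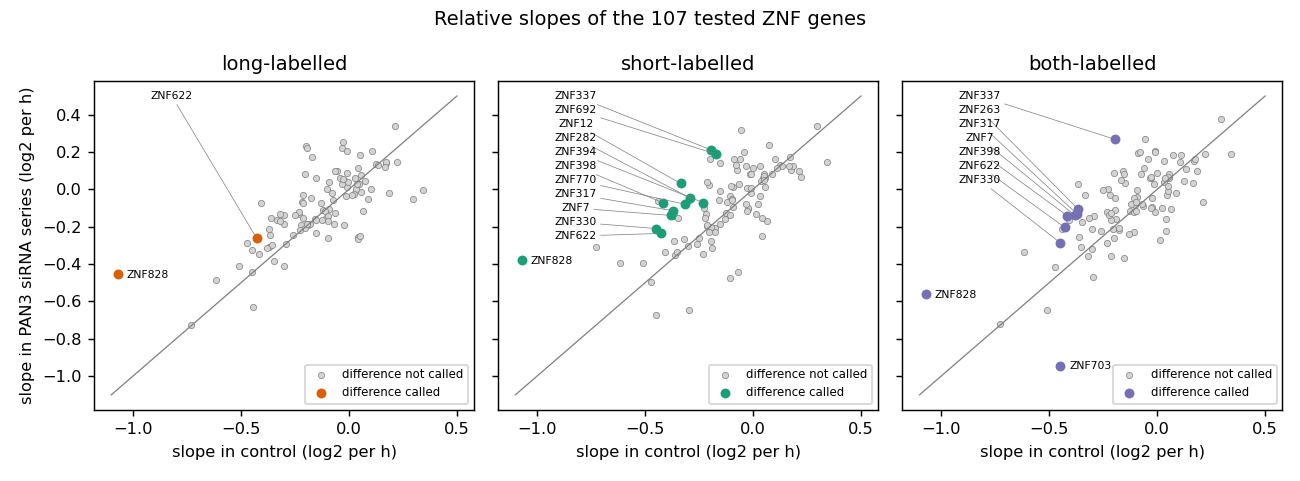
Slope in each PAN3 siRNA series against the slope in control cells, both in log2 units per h relative to the library median, for the 107 tested ZNF genes, with the line of equal slopes. Filled points are members with an adjusted p under 0.05 for the difference: 2 in the long-labelled, 12 in the short-labelled and 9 in the both-labelled panel, all above the line except ZNF703 in the both-labelled panel.

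Short-labelled and long-labelled cells were set against each other directly, without the control libraries in the contrast. Slopes were higher in short-labelled cells for 4 members and lower for 1, where 2.23% and 4.07% of all genes were called. ZNF330 had 21.97, 20.97, 16.2, 11.2, 5.19 and 3.12 FPKM in long-labelled cells, a slope of -0.44, so that the short-labelled slope was higher by 0.23 ± 0.03 per h (adjusted p = 3.3e-04, held without any 1 time). ZNF317 had 11.1, 8.08, 5.88, 3.34, 2.07 and 2.60 FPKM in long-labelled cells, with a difference of 0.19 ± 0.04 (adjusted p = 0.014) whose call ended without the 0 h or the 0.5 h libraries of all series. ZNF282 differed by 0.25 ± 0.05 (adjusted p = 0.0077) and ZNF398 by 0.28 ± 0.08 (adjusted p = 0.048).

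ZNF410, a transcription factor known for control of the CHD4 gene, went the other way. It had 17.5, 15.99, 14.4, 10.9, 5.98 and 3.48 FPKM in short-labelled cells and 9.84, 8.64, 11.3, 8.63, 6.24 and 5.14 FPKM in long-labelled cells, with a difference in slope of -0.23 ± 0.06 (adjusted p = 0.044). It began higher in short-labelled cells and ended lower there. The calls of ZNF410 and ZNF398 were lost without most single libraries of these 2 series, and those of ZNF282 without either library at 6 h. With only these 2 series in the fit 0 were called. The number called was 2 without either series' library at 6 h, and 3 without the long-labelled library at 0.5 h or the short-labelled library at 0, 0.5 or 1 h.

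Levels over the whole course differed more often than slopes. Level differences compare series time by time on the log2 scale, and the share of all genes called was large in every contrast, so the members' counts are read against it. Their SE and p measure the scatter of the times along single courses. An siRNA effect on level therefore cannot be told from another difference between the series. In short-labelled cells 30 members were higher and 25 lower than in control cells (28.0% and 23.4% of members, against 32.7% and 30.7% of all genes). In both-labelled cells 31 were higher and 20 lower (29% and 18.7%, against 33% and 29% of all genes). In long-labelled cells 21 were higher and 10 lower (19.6% and 9.35%, against 27.1% and 24.1% of all genes).

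ZNF226 was among the members furthest above control in short-labelled cells. It had 11.6, 10.8, 12.1, 11.98, 13.2 and 16.5 FPKM in short-labelled cells and 3.34 to 4.82 FPKM in control cells, a difference of 1.73 ± 0.09 log2 units (adjusted p = 1.2e-11). Both-labelled cells had 12.2 to 14.3 FPKM (1.76 ± 0.09, adjusted p = 1.1e-11), and none of these libraries overlapped with control. ZNF367 had 8.18 to 13.0 FPKM in short-labelled, 7.87 to 13.0 in both-labelled and 5.71 to 12.03 in long-labelled cells, against 2.64 to 6.08 FPKM in control cells. Its differences were 1.51 ± 0.08, 1.45 ± 0.08 and 1.14 ± 0.08 in that order, and at each time all 3 siRNA series were above control.

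Other members far above control in both short-labelled and both-labelled cells were ZNF92 (1.68 ± 0.26 and 2.10 ± 0.26), ZNF121 (1.51 ± 0.24 and 1.86 ± 0.24), ZNF646 (1.58 ± 0.18 and 1.42 ± 0.18), ZNF143 (1.52 ± 0.15 and 1.31 ± 0.15) and ZNF451 (1.42 ± 0.15 and 1.33 ± 0.15). ZNF143 is an activator of small nuclear RNA and many protein-coding promoters, and ZNF451 is a SUMO ligase. ZNF143 had 11.0, 9.05, 9.70, 6.81, 4.11 and 4.10 FPKM in short-labelled cells and 3.49, 3.80, 2.91, 2.87, 1.36 and 1.58 FPKM in control cells. Its level was higher at each time while its slope was not called different. ZNF12 (1.71 ± 0.29), ZNF92 (1.33 ± 0.26) and ZNF37A (1.31 ± 0.39) were highest above control in long-labelled cells, and in ZNF37A the value at 1 h, where control is listed at 0, lies far from the other times. ZNF92, ZNF37A and ZNF12 had means of 1.27, 1.29 and 1.79 FPKM over all libraries. Members this near the threshold may have met it only through the series where they were high. Their differences are thus given as a description only.

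ZNF768 was lowest against control. It had 1.99, 1.76, 1.23, 0.976, 0.815 and 0.883 FPKM in short-labelled cells and 3.66, 3.20, 5.36, 1.83, 1.28 and 1.19 FPKM in both-labelled cells. In control cells it had 12.03, 13.8, 10.9, 10.4, 10.6 and 10.7 FPKM, and in long-labelled cells 4.26 to 15.4 FPKM. The level difference was -3.04 ± 0.27 in short-labelled (adjusted p = 2.8e-08) and -2.13 ± 0.27 in both-labelled cells (adjusted p = 2.5e-06), with no overlap with control in either.

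ZNF32 was also lower in short-labelled (-2.12 ± 0.27) and both-labelled cells (-1.74 ± 0.27), with 0.457 to 1.48 and 0.504 to 1.59 FPKM against 2.52 to 6.53 FPKM in control cells. ZNF576, ZNF146 and ZNF205 were below control in both of these series too, by 1.58, 1.47 and 1.18 log2 units in short-labelled and by 1.88, 1.08 and 1.41 in both-labelled cells. The both-labelled call of ZNF146 ended without the 2 h libraries of all series. In long-labelled cells ZNF576 (-1.35 ± 0.47), ZNF146 (-1.06 ± 0.32), ZNF384 (-0.83 ± 0.23) and ZNF687 (-0.83 ± 0.08) were lowest against control, where the call of ZNF146 ended without the 0 h libraries and that of ZNF576 without those at 0.5, 1 or 6 h. ZNF687, a subunit of a complex with the chromatin reader ZMYND8, had 3.49 to 9.35 FPKM in long-labelled cells and 6.02 to 17.8 in control cells, and was lower at each time.

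**Figure D4:**
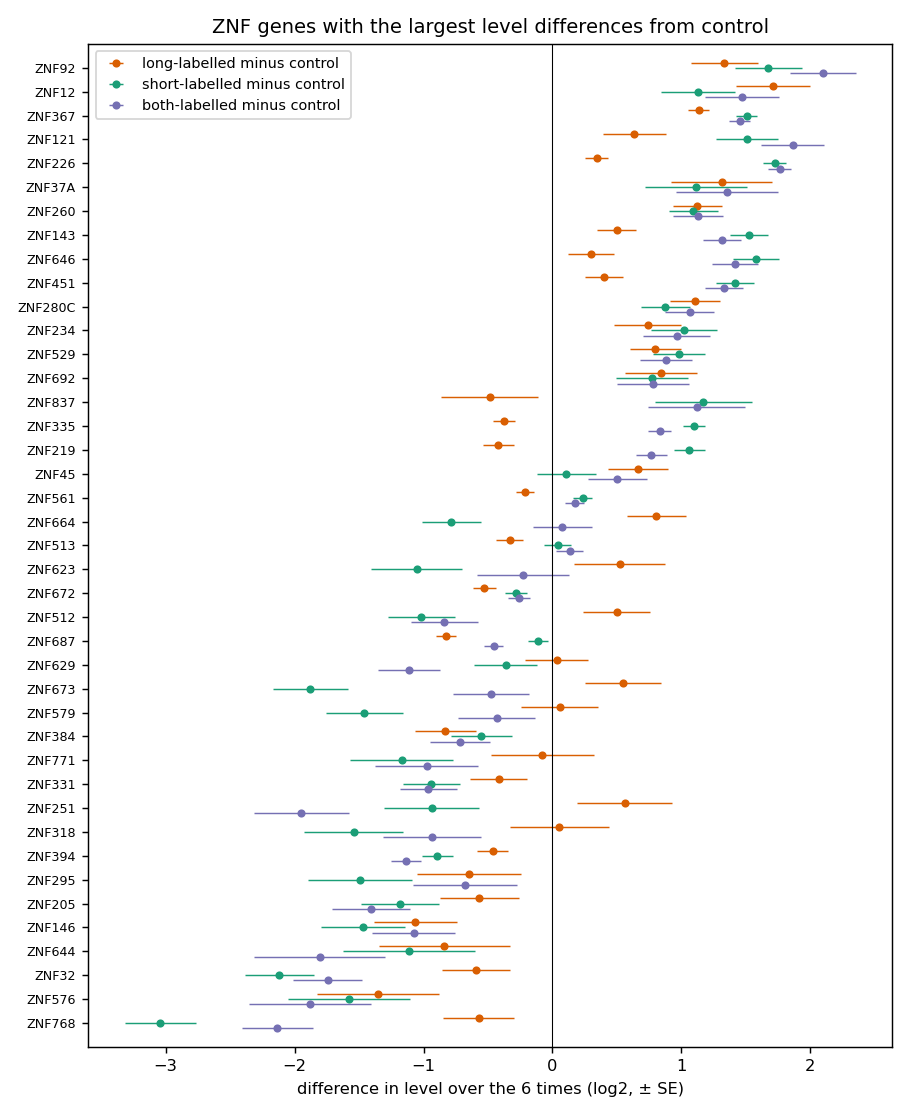
Difference in level from control over the 6 times (log2, with SE) for the 41 ZNF genes named by size in any of the 3 contrasts, ordered by the mean of the 3. ZNF92 stands at 1.33, 1.68 and 2.10 and ZNF768 at -0.57, -3.04 and -2.13 in long-labelled, short-labelled and both-labelled cells. The mean of ZNF92 over all libraries was 1.27 FPKM, near the threshold that chose the members.

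Between short-labelled and long-labelled cells 25 members were higher and 26 lower (23.4% and 24.3%, against 31.7% and 32.3% of all genes). ZNF335, a subunit of a histone H3 methyltransferase complex, had 15.1 to 19.1 FPKM in short-labelled and 5.96 to 7.05 FPKM in long-labelled cells, a difference of 1.47 ± 0.09 (adjusted p = 7.2e-11), and the 2 series did not overlap. ZNF219 had 12.1 to 14.0 FPKM in short-labelled and 2.93 to 5.56 FPKM in long-labelled cells (1.48 ± 0.12, adjusted p = 5.7e-09). In the other direction ZNF664 had 5.06 to 14.2 FPKM in short-labelled and 17.4 to 36.6 FPKM in long-labelled cells (-1.59 ± 0.23, adjusted p = 9.7e-06), and ZNF673 had 0.658 to 2.07 and 3.58 to 7.21 FPKM (-2.42 ± 0.29, adjusted p = 1.2e-06).

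The members were chosen by a symbol that stands for zinc fingers. The shares of finger, finger-linker and KRAB patterns given here therefore only describe them. Sequence features were read for 103 of the 107 tested members, from the most abundant transcript of each gene where GENCODE held it complete. Otherwise another RefSeq transcript of the gene was taken. A C2H2 finger pattern was found in 95 of the 103 members (92.2%, against 3.39% of 7549 tested genes with sequence), with a median of 8 fingers and at most 30. The conserved linker between neighbouring fingers was found in 59 (57.3%, against 1.13%) and a KRAB pattern in 23 (22.3%, against 0.318%). No finger by this pattern was found in 8 members, ZNF330, ZNF503 and ZNF703 among them. In 3 others of the 8, ZNF226, ZNF197 and ZNF280D, the transcript read coded for only 94, 267 and 158 residues. Finger and KRAB counts thus depend on the transcript read and may be too low. The median control slope was -0.11 per h in the 39 members with 1 to 7 fingers and in the 56 with 8 or more, with 15 and 16 called below 0. It was -0.09 in the 23 members with the KRAB pattern (6 below 0) and -0.11 in the 80 without it (28 below 0), and -0.09 in the 29 on chromosome 19 (9 below 0) and -0.12 in the 76 on other chromosomes (26 below 0).

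Members with 1 transcript in the table had a median control slope of -0.16 per h and 24 of 55 called below 0, and those with several had -0.08 and 12 of 52. In control cells the offset from other genes was present at each level. It was absent in both-labelled cells at 1 to 2 FPKM, where the median slope was -0.03 in members and in other genes. In short-labelled cells it was -0.06 against -0.02 at that level. Members of 1 to 2 FPKM had a median control slope of -0.10, against -0.01 in other genes of that level, those of 2 to 5 FPKM -0.15 against -0.01, those of 5 to 10 FPKM -0.13 against 0.01, and those of 10 FPKM or more -0.03 against 0.07. Across members the control slope went with the GC content of the coding sequence at a Spearman rho of -0.30 (103 genes), against -0.01 in 7549 genes, and with the number of fingers at 0.01. Across genes the libraries are shared, so no p is given.

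In the 3′ UTR, the AU-rich motif TATTTAT was searched on the strand of the transcript, overlapping matches counted. It was found in 29 of 103 members (28.2%, against 31.1% of 7549 genes). Of the 34 members called below 0 in control cells 14 held it (41.2%), and of the 69 others 15 (21.7%). The median control slope was -0.18 per h in members with the motif and -0.10 in those without. The same medians were -0.07 and -0.12 in long-labelled, -0.07 and -0.06 in short-labelled, and -0.10 and -0.05 in both-labelled cells. The order was thus reversed in the long-labelled series. How often all genes called below 0 held the motif was not examined. The seed match of the microRNA let-7, CTACCTC, was found in 16 (15.5%, against 8.99%). The median 3′ UTR was 1250 bases long in the members and 986 in all genes, and neither motif's share was adjusted for length. Of the 11 members with sequence and a higher slope in short-labelled than in control cells, 1 held TATTTAT (9.09%) and 1 CTACCTC. The sites of 4 members named above for their slopes are shown as examples on GRCh38, motif in capitals. They lie at chr10:75398416-75398438 (minus strand) in ZNF503, chr6:26637296-26637318 (minus strand) in ZNF322, chr15:34980469-34980491 (minus strand) in ZNF770 and chr7:149225266-149225288 (plus strand) in ZNF282.
ZNF503: gacactggTATTTATttatgtta
ZNF322: ttaaaaatTATTTATgtatcaga
ZNF770: ttcaaagcTATTTATttttagga
ZNF282: ctctccgcCTACCTCcgctgctc

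Related families gave fewer genes. Over all genes tested, 16.7% were called below 0 and 30.1% above 0 in control cells. Of 13 ZBTB genes, which join fingers to a BTB domain, 6 (46.2%) were called below 0 there and none above, with a median slope of -0.14 per h. All 3 ZFP genes and all 3 ZSCAN and ZKSCAN genes had slopes below 0, with 1 called. Among 12 tested genes of the corepressor machinery that KRAB proteins use, 3 were called below 0 (25%) and 1 above (8.33%). Their median slope was 0.01, and so few genes say little against the shares of all genes. Within that list SUV39H1, a histone H3 methyltransferase, had a higher slope than in control in long-labelled cells (0.18 ± 0.04 per h, adjusted p = 0.038), and CBX5, the heterochromatin protein HP1 alpha, in short-labelled cells (0.12 ± 0.03, adjusted p = 0.013). In both-labelled cells the differences were 0.15 for SUV39H1 (adjusted p = 0.037) and 0.13 for CBX5 (adjusted p = 0.010).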

How the data were processed

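The authors deposited 1 table of FPKM values for RefSeq transcripts. TopHat 1.3.3 and the build hg19 are named in the submitters' processing notes. The tool behind the FPKM values, and whether it used strand, is not given in the sources used here. Reads of close ZNF copies may have been split or dropped. Transcripts were summed per symbol, a dash being missing. A gene was tested (7860) if its mean reached 1 FPKM, no value was a dash and no 0 stood beside a neighbouring time at 1 FPKM or more. Values were log2(FPKM + 0.1), median-centred per library. Adding 0.1 understates changes of low genes, while the size of a change to a value listed at 0 depends on the value added. Of the tested members, 10 were listed at 0 in some library. limma 3.58.1 (R 4.3.3, mean-variance trend) fitted all 24 libraries: a line in hours per series for slopes, time as a factor with series and series by hours for slope differences, and time with series for levels, with Benjamini-Hochberg adjusted p over all genes tested. The fit was tested on simulated data. p-values measure the scatter of single libraries, whose cultures are not described.

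The members, lists and tests were chosen with earlier results of these data known. Members were named by size of the difference, up to 12 in each direction, when called and with a sign that held without any 1 time; for control slopes the 10 lowest and 5 highest; the 5 highest and the 3 nearest the threshold on each side by mean. Examples ZNF131 and ZNF3 and the 4-series lists were chosen after their values were seen. Finger and KRAB patterns were read from GENCODE 29 coding sequences on GRCh38, in place of the RefSeq proteins planned. Alternatives were the added value, the level filter, centring, quantile normalisation, the main transcript alone, genes with zeros, the time block, the trend, the libraries in the fit, and each library or time left out; slopes against the median slope were added after the data were seen.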

Additional observations from a re-analysis of the deposited data

Results flagged for a closer look

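In 12 courses of tested members the difference between 2 series at 1 time lay far outside those at the other 5 times, by Dixon's test, which chance meets in about 1 in 20 groups; 94 courses were examined. In short-labelled minus control cells, log2 values were -2.71 at 2 h for ZNF146 (others -1.58 to -0.94), -2.05 at 1 h for ZNF205 (-1.20 to -0.92) and 0.37 at 6 h for ZNF512 (-1.49 to -1.15). In both-labelled minus control cells they were -1.37 at 4 h for ZNF837 (1.17 to 2.50) and 0.15 at 6 h for ZNF629 (-1.80 to -1.07). In long-labelled minus control cells they were 4.37 at 1 h for ZNF37A, where control is listed at 0 (-0.03 to 1.47), and -0.21 at 6 h for ZNF672 (-0.65 to -0.54).

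In short-labelled minus long-labelled cells the odd values were 3.24 at 6 h for ZNF641 (0.62 to 1.58), 2.04 at 4 h for ZNF219 (1.26 to 1.54), 2.13 at 6 h for ZNF646 (0.87 to 1.28), -3.69 at 6 h for ZNF318, where short-labelled cells are listed at 0 (-1.68 to -0.67), and -0.72 at 1 h for ZNF512 (-1.84 to -1.52). What set these libraries apart was not tested.

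Short-labelled and long-labelled cells differed by a limma test of the difference itself in 5 slopes. With only those series in the fit no slope was called. Each series is a single course, so an siRNA effect cannot be told from another difference between the series. Levels differed for 51 members, and the 6 given here are those also called against control in both series, in opposite directions. The control libraries are shared by both comparisons with control. The slope differences, short-labelled minus long-labelled, were 0.28 per h for ZNF398, 0.25 for ZNF282, 0.23 for ZNF330, 0.19 for ZNF317 and -0.23 for ZNF410. For levels, ZNF219 was 1.06 above control in short-labelled and 0.42 below it (-0.42) in long-labelled cells, a difference of 1.48, and ZNF335 had 1.09 and -0.37 (1.47). ZNF561 had 0.23 and -0.21 (0.45). ZNF664 had -0.78 and 0.80 (-1.59), ZNF511 had -0.24 and 0.54 (-0.78), and ZNF271 had -0.15 and 0.43 (-0.59), so these last 3 were lower in short-labelled cells.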

How the results depend on the processing

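Under the alternatives run, no count of members changed its leading direction in control slopes, and calls of single slope differences were the least stable. The 39 members called in control slopes became 17 above 5 FPKM, a filter that tests fewer members, and 29 to 40 when 1 library or time was left out. Of slope differences called, the 12 in short-labelled against control cells became 7 above 5 FPKM, 5 without time as a factor (the time block) and 0 with only those series in the fit (leave-outs 4 to 12). The 9 in both-labelled against control became 5, 2 and 1 under the same settings and 4 with no level filter (3 to 10). The 2 in long-labelled against control became 1 with 1 FPKM added, with the main transcript alone or without the block, and 0 with no filter or only those series (0 to 4). The 5 in short-labelled against long-labelled became 3 with a filter at 0.1 FPKM, no filter, quantile normalisation, genes with zeros kept, the main transcript alone or no block, and 0 with only those series (2 to 6). Level counts above 5 FPKM were 14 of 31 (long-labelled against control), 23 of 55 (short-labelled), 23 of 51 (both-labelled) and 23 of 51 (short-labelled against long-labelled), and without the block 17 and 31 in the first and last; leave-outs gave 24 to 39, 46 to 53, 41 to 50 and 42 to 51. ZNF513 in long-labelled against control cells changed sign with its main transcript alone, 0.10 (adjusted p = 0.62 in limma). The cause of these changes was not tested. Depth in reads is unknown, so no counting floor can be given.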
